A study of Mus musculus with 48 samples.

Results

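Collagen genes were examined in the subcutaneous white adipose tissue (sWAT) of C57BL/6 mice (C57BL/6J in the study), taken as every protein-coding row of the deposited count table whose symbol is a collagen α-chain name (Col, a type number, a and a chain number). The rule found 44 genes among the 54532 rows, and 38 of them passed the filter on low counts that left 19977 genes for testing. Collagens are trimeric proteins in which 3 α-chains wind into a triple helix. Fibrillar types I, III and V build the tensile fibers of connective tissue, type IV forms the sheet of the basement membrane that surrounds each adipocyte and blood vessel, and type VI makes beaded filaments that link fibers to that sheet. In adipose tissue this matrix is laid down mainly by fibroblast-like progenitors and, for the basement membrane, also by adipocytes and endothelial cells, and it is remodeled as fat cells swell and shrink.

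Poly-A RNA of the inguinal depot was sequenced from mice 8 months old that ate either ad-lib (AL) or in 2 nightly meals (TAN), with food from 9 to 11 PM and from 5 to 7 AM of a dark phase that ran from 8 PM to 8 AM. Each diet was sampled at 8 AM, 12 PM, 4 PM, 8 PM, 12 AM and 4 AM with 4 libraries per diet and time, 48 in all, and no allele, transgene or drug was involved. The study describes whole tissue, while the series text names the stromal vascular fraction. All 8 adipocyte markers were above 0 in every library, with a summed level of 5040 to 48983 in normalized counts (CPM). The labels number the replicates without saying that each came from its own animal, so the p-values measure the spread between these libraries.

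Libraries held 15636378 to 29913310 counts. Some of them stood apart before any comparison. TAN 8 PM replicates 1 and 2 had low adipocyte sums (8147 and 5040 CPM against 31057 and 41804 in replicates 3 and 4) and low endothelial sums (216 and 183 CPM against 434 and 419), with lymphocyte sums of 2373 and 2488 CPM against 920.0 and 37.9. In 10 libraries, 4 AL and 6 TAN, the summed level of 10 lymphocyte markers was under 100 CPM, and 3 of these were TAN 4 PM libraries. The inguinal depot surrounds a lymph node, and the study excluded lymph nodes when it prepared the stromal vascular fraction. For the tissue of these libraries its removal is not given in the sources used here. The part of either difference in the results below was not tested unless a value is given. In addition, every one of the 48 libraries carries a time label 12 h away from the library of the same values in the study's own expression table, over 960 genes compared. The labels of the count table are used here. By those labels Dbp, a clock output gene that in mice is highest late in the light phase, averaged 101.9 CPM at 4 PM and 8.37 CPM at 8 AM in AL.

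Promoters are shown for one abundant chain and for 5 chains whose levels differed by diet or time, since these are the sequences against which the results can be read. Each run is the 150 bases before the RefSeq gene start in GRCm38, 5′ to 3′ on the strand of the gene, and none of them overlaps an annotated exon. Capitals mark a CCAAT box (CCAAT), a GC box (GGGCGG) or a TATA box (TATAAA) on either strand.
Col3a1 (chr1:45311388-45311537, plus strand): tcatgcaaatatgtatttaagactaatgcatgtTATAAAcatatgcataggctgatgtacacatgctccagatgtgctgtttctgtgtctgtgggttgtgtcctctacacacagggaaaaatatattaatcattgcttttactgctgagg
Col15a1 (chr4:47207862-47208011, plus strand): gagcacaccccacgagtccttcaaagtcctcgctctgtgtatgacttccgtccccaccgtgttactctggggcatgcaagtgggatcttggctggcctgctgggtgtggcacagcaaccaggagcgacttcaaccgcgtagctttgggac
Col5a3 (chr9:20815068-20815217, minus strand): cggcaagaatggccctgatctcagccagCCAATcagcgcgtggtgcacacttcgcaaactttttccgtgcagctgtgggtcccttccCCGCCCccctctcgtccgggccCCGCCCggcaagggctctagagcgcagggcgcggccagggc
Col13a1 (chr10:61979109-61979258, minus strand): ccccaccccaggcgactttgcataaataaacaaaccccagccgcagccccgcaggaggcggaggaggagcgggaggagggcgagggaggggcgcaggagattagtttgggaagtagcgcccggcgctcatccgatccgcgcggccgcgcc
Col6a5 (chr9:105960644-105960793, minus strand): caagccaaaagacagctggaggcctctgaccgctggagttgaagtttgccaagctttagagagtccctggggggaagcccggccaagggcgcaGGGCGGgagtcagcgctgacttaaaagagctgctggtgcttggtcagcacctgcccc
Col4a6 (chrX:141474077-141474226, minus strand): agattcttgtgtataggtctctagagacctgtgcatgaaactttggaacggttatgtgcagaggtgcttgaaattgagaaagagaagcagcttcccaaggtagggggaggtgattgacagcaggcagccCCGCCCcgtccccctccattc
The stretch before Col3a1 holds 1 TATA box, that before Col5a3 holds 1 CCAAT box and 2 GC boxes, and those before Col6a5 and Col4a6 hold 1 GC box each. The runs before Col15a1 and Col13a1 hold none of these letters. RefSeq windows matched 35 of the 44 collagen genes. Over the 250 bases before the start and on both strands, the GC box was present in 21 of the 35 (60%) against 32.7% of 32851 windows of all genes, the CCAAT box in 12 (34.3% against 33.8%) and the TATA box in 5 (14.3% against 12.4%). The E-box CACGTG, the letters read by the clock proteins BMAL1 and CLOCK, was in 0 of 35 windows and in 6% of all windows. These are matches of letters and say nothing of binding.

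Levels of different genes are compared per length, in TPM (counts divided by exonic length and scaled to the same total in each library). Col3a1, the single chain of fibrillar type III, was the most abundant collagen at a mean of 169 TPM, and it supplied 30.3% of the collagen TPM. It was above the second gene, Col6a1 of type VI (64.97 TPM), in 48 of 48 libraries. The next places did not separate beyond their spread. Col6a1 exceeded Col4a1, a basement membrane chain (59.5 TPM), in 30 of 48 libraries, and Col4a1 exceeded Col1a2 of type I (55.9 TPM) in 22 of 48. Col1a2 was above Col15a1, a multiplexin of the basement membrane zone (34.7 TPM), in 43 of 48. Col4a2 followed at 29.6 TPM, Col1a1 at 24.6, Col6a2 at 23.7, Col6a3 at 21.1 and Col5a2 at 17.8, and these 10 genes together made up 89.85% of the collagen TPM. The type V partners Col5a3 and Col5a1 came next at 17.4 and 11.5 TPM. At the other end, 23 of the 44 genes averaged under 1 TPM, and 6 were too low to test. These were Col2a1, Col9a1 and Col9a2, known from cartilage, with Col19a1, Col22a1 and Col25a1.

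**Figure D1:**
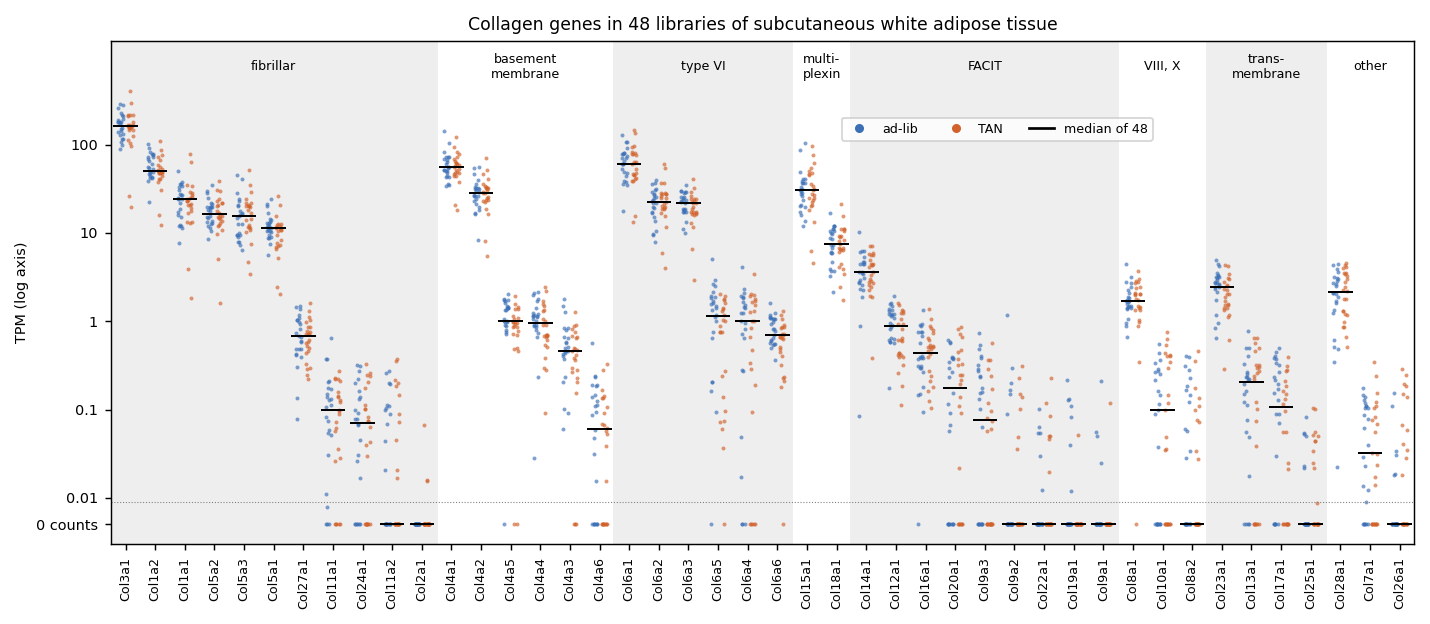
TPM (log axis) of the 44 collagen genes in 48 libraries, grouped by collagen type and ordered by mean within each type. Each library is 1 point colored by diet, with the median as a black line and libraries without a count in the band at the bottom. Col3a1 stands above all others at a mean of 169 TPM, and the points of AL and TAN overlap for the abundant genes.

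By type, the 11 fibrillar genes held 53.0% ± 4.7 (SD, n = 48) of the collagen TPM, the 6 type VI genes 20.2% ± 2.4, the 6 type IV genes 16.8% ± 3.0 and the 2 multiplexins Col15a1 and Col18a1 7.38% ± 1.99. Fibril-associated (FACIT) collagens held 1.26%, and short-chain, transmembrane and other types less than 1% each. The division was alike in the diets at this spread, with 53.9% ± 4.1 fibrillar in AL and 52.0% ± 5.1 in TAN, 16.5% ± 2.9 against 17.2% ± 3.1 type IV, and 19.9% ± 2.5 against 20.4% ± 2.3 type VI (n = 24 each). Shares of one total cannot move separately and were not tested.

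Collagen genes took 0.181% ± 0.054 of all counts in AL and 0.173% ± 0.068 in TAN (SD, n = 24 each). The lowest library was TAN 8 PM replicate 2 at 0.0406%, and the highest was TAN 4 PM replicate 2 at 0.384%. The 4 TAN 8 PM libraries had 0.0561%, 0.0406%, 0.132% and 0.174%, so the pair with low adipocyte sums was also the pair with the least collagen RNA, outside the AL 8 PM range of 0.122% to 0.209%. In bulk tissue, fewer cells of a type and less RNA per cell cannot be told apart.

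The ratio of partner chains varied less than their levels in the abundant pairs. Col1a1 and Col1a2, the chains of type I, varied 42.5-fold and 9.05-fold over the 48 libraries, and the ratio of their TPM values was 0.424 ± 0.124 (SD, n = 48) and varied 4.75-fold. Both chains were lowest in TAN 8 PM replicate 2, described above, and highest in TAN 4 PM replicate 2, so these ranges rest on single libraries. The coefficient of variation was 29.3% for the ratio and 55.2% and 36.0% for the chains. The Col4a1 to Col4a2 ratio was 2.10 ± 0.45 and varied 2.69-fold, while the chains varied 7.71-fold and 12.7-fold. These chains too were lowest in TAN 8 PM replicate 2. This pair lies head to head, with starts 21 bases apart. The Col6a1 to Col6a2 ratio was 2.82 ± 0.56. This was not so for the low partners Col4a3 and Col4a4, whose ratio ran from 0 to 3.55 with a coefficient of variation of 103.5%, beside 71.4% and 53.6% for the chains. Nor was it particular to chains of one trimer, since the ratio of Col3a1 to Col1a1, which form separate trimers, was 7.51 ± 1.84 and varied 2.60-fold. Col5a3, a type V chain, stood to Col5a1 at 1.28 ± 0.40 in AL and 1.71 ± 0.39 in TAN (n = 24 each), a difference that was not tested.

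**Figure D2:**
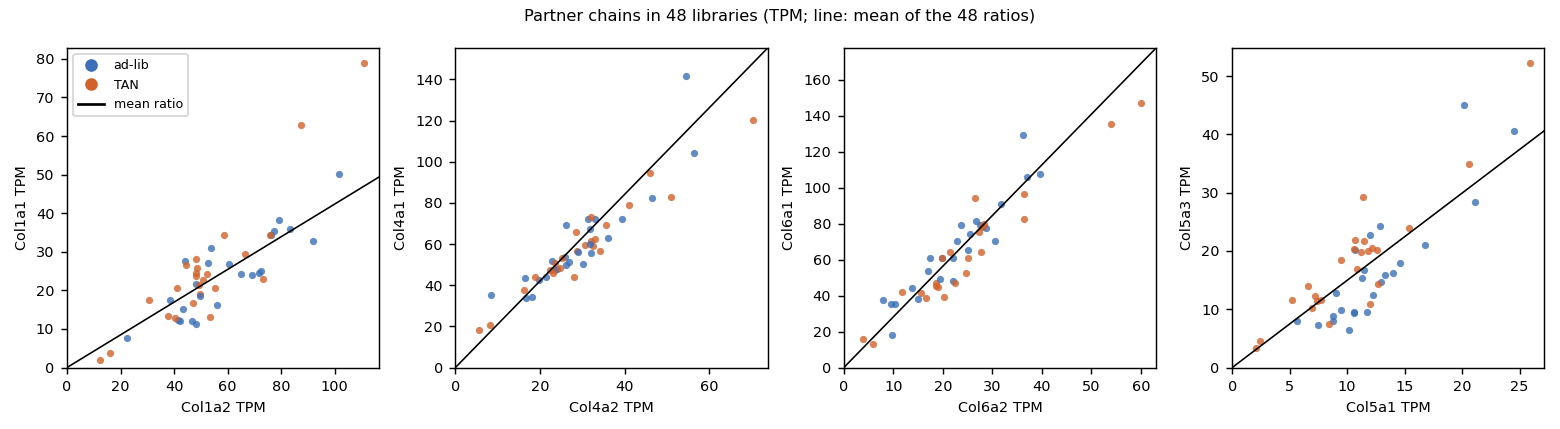
TPM of one collagen chain against its partner in 48 libraries (linear axes, 1 point per library, colored by diet), with the mean ratio as a line, for Col1a1 and Col1a2, Col4a1 and Col4a2, Col6a1 and Col6a2, and Col5a3 and Col5a1. Points follow the line over the range of levels, with ratios of 0.424 ± 0.124, 2.10 ± 0.45 and 2.82 ± 0.56 for the first 3 pairs.

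TAN was next contrasted with AL at each time, which asks what differed between the regimens at a given hour. The study reports that TAN mice also ate modestly less, so meal timing and intake cannot be told apart in this contrast. A gene was called at a Benjamini-Hochberg adjusted p under 0.05 in edgeR's quasi-likelihood test over all 19977 genes. At 8 AM 0 of 38 collagen genes were called (0.015% of all genes), at 12 PM 0 (0.0901%), at 12 AM 0 (0.15%) and at 4 AM 0 (0%). At an unadjusted p under 0.05 the counts at these times were 0, 1, 2 and 0, and DESeq2 called 0, 0, 1 and 0 (Col13a1 lower at 12 AM). Of all 19977 genes DESeq2 called 47, 59, 562 and 4 at these times. At 4 PM 2 were called, both lower in TAN (15.3% of all genes, 6.54% higher and 8.77% lower). At 8 PM 1 was called, lower in TAN (11.7% of all genes, 3.76% higher and 7.91% lower). In the mean over the day 0 were called (5.42%), with 3 at an unadjusted p under 0.05. The share of collagen genes called thus lay near or below that of all genes at every time, and the called genes were all of low level.

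**Figure D3:**
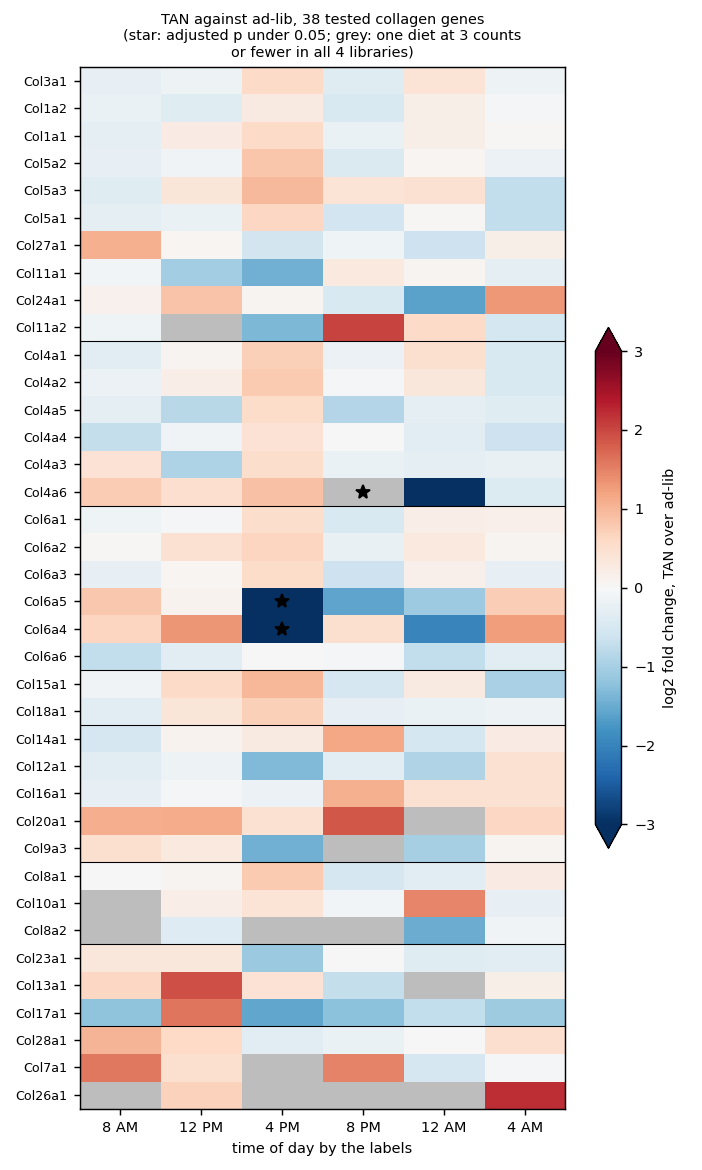
Log2 fold change of TAN over AL (color, limited to ±3) for 38 tested collagen genes at 6 times, grouped by collagen type, with a star at an adjusted p under 0.05 and grey where one diet had at most 3 counts in each of its 4 libraries. Stars mark Col6a5 and Col6a4 at 4 PM and, on grey, Col4a6 at 8 PM, and the rows of the abundant genes are positive at 4 PM and mostly negative at 8 PM without a star.

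Among the abundant fibrillar, type IV and type VI chains, no diet difference passed the test at any time in the fit over all groups without a covariate. At 4 PM, before the first TAN meal, Col3a1 was at 730, 669, 534 and 642 CPM in AL and at 951, 1466, 801 and 596 CPM in TAN. The groups overlapped through TAN replicate 4, and replicate 2 was far above the rest. The difference was 0.57 on the log2 scale (95% interval −0.28 to 1.42, adjusted p = 0.3632). All 10 of the most abundant genes had a positive estimate at 4 PM, from 0.28 for Col1a2 to 0.99 for Col15a1, with a median of 0.60. The smallest adjusted p among them was 0.1442, and their 95% intervals ran from −0.43 to 1.97, so both a small fall and a large rise lay within the error. The median over the 38 tested collagen genes was 0.43, beside −0.09 for all genes. Adipocyte markers moved with this, at summed levels of 10577 to 16964 CPM in AL 4 PM and 25657 to 48983 CPM in TAN 4 PM without overlap and with Retn and Fabp4 called higher, and their part in the estimates was not tested. The estimates turned negative, to between −0.54 and −0.13, when the lymphocyte markers entered the model as a covariate, again with none called.

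Col6a1, Col4a2, Col1a2, Col6a2, Col6a3 and Col1a1 overlapped between the diets at 4 PM. Col6a1 was at 114, 128, 81.1 and 139 CPM in AL and 185, 239, 105 and 136 CPM in TAN (0.52, adjusted p = 0.366). Col4a2 was at 69.3, 61.8, 64.3 and 77.8 CPM in AL and 137, 172, 71.1 and 89.6 CPM in TAN (0.78, adjusted p = 0.1829). Col1a2 was at 339, 306, 247 and 288 CPM in AL and 408, 511, 277 and 238 CPM in TAN (0.28, adjusted p = 0.6201). In each of these TAN replicate 2 was the highest library. Col6a2 was at 75.0, 85.2, 50.3 and 92.3 CPM in AL and 99.1, 185, 94.0 and 92.0 CPM in TAN (0.64, adjusted p = 0.288). Col6a3 was at 112, 91.1, 85.9 and 77.4 CPM in AL and 155, 181, 92.0 and 106 CPM in TAN (0.54, adjusted p = 0.3237). Replicate 2 was again the highest, as it was for Col1a1, where it reached 192 CPM beside 62.0 to 77.2 CPM in the other 3 TAN libraries and 48.8 to 77.3 CPM in AL. Without replicate 2 the Col1a1 estimate fell from 0.57 to 0.06.

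Col15a1, whose product sits where basement membrane meets fibrils, was at 77.4, 75.6, 57.4 and 77.7 CPM in AL at 4 PM and at 128, 228, 78.5 and 137 CPM in TAN. Every TAN library was above every AL library. The difference of 0.99 (SE 0.49, 95% interval 0.01 to 1.97) did not pass the correction (adjusted p = 0.1478). Type V showed the same picture, with Col5a3 at 54.2, 36.7, 26.0 and 36.5 CPM in AL and 61.3, 132, 52.5 and 55.4 CPM in TAN (0.97, adjusted p = 0.1361), where only TAN replicate 3 lay below the highest AL library. Col5a2 had 62.6, 66.2, 43.5 and 62.1 CPM in AL and 132, 136, 67.4 and 79.1 CPM in TAN, without overlap (0.82, adjusted p = 0.1442). Col4a1 had 165, 136, 137 and 161 CPM in AL and 316, 333, 163 and 168 CPM in TAN (0.71, adjusted p = 0.1599), with TAN replicate 3 inside the AL range. Fitted on the 4 PM libraries alone, Col15a1 and Col5a2 were called higher. The share of all genes called in that fit is not given here. With the lymphocyte covariate in the fit over all groups, both estimates turned negative and neither gene was called.

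At 8 PM, as the dark phase began, the 10 abundant genes had 0 positive estimates, which ran from −0.62 for Col6a3 to −0.03 for Col4a2, and their smallest adjusted p was 0.2922. With the lymphocyte covariate Col1a2, Col6a3, Col5a2 and Col5a1 were called lower at 8 PM along with Col4a6, when 3878 of the 19977 genes were called, and without TAN 8 PM replicate 4 Col6a3 and Col5a1 were called lower. Col3a1 was at 298, 475, 345 and 739 CPM in AL and at 124, 91.3, 485 and 740 CPM in TAN. Only the TAN replicates 1 and 2 were below the AL libraries, and these are the libraries described above. Col1a1 repeated this with 30.2, 36.9, 26.6 and 61.2 CPM in AL and 12.1, 5.78, 38.4 and 79.2 CPM in TAN. At 12 AM all 10 estimates were positive at 0.06 to 0.48 and none was called. Over the day they ran from −0.10 to 0.21, with 95% intervals from −0.39 to 0.55.

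**Figure D4:**
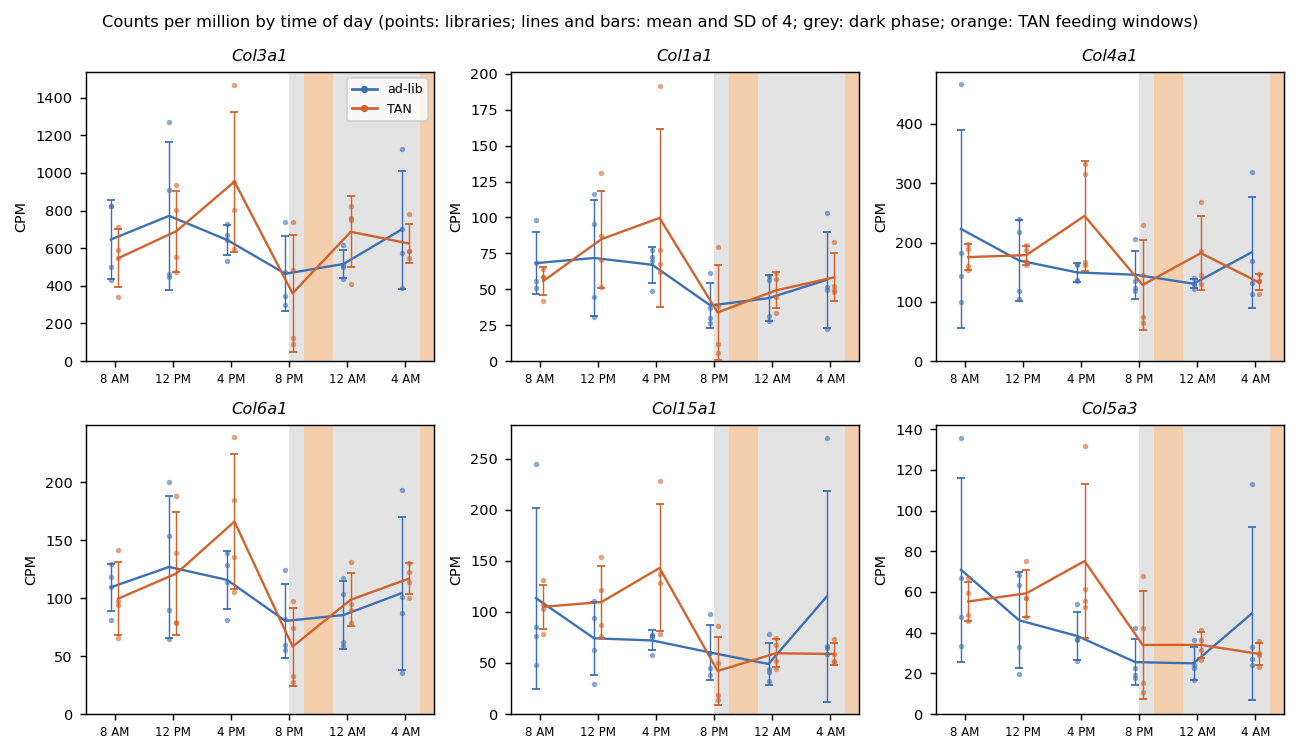
CPM of Col3a1, Col1a1, Col4a1, Col6a1, Col15a1 and Col5a3 at 6 clock times in AL and TAN, with 1 point per library and the mean ± SD of 4 libraries as line and bars, the dark phase in grey and the TAN feeding windows in orange. TAN means are highest at 4 PM for all 6 genes, and for Col3a1 its 8 PM libraries spread from 91.3 to 740 CPM.

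The genes called at 4 PM were 2 of the later-described type VI chains, Col6a5 and Col6a4, which resemble the long Col6a3 chain and can take its place in a trimer. Col6a5 (GRCm38 chr9:105856078-105960643, minus strand) was at 6.69, 4.53, 14.5 and 7.10 CPM in AL and at 0.305, 0.486, 0.416 and 0.223 CPM in TAN. All TAN libraries were below all AL libraries. The log2 fold change was −4.49 (SE 1.06, 95% interval −6.63 to −2.35, adjusted p = 0.01022). Col6a4 (chr9:105989454-106096783, minus strand) was at 5.11, 3.94, 10.8 and 5.34 CPM in AL and was counted in TAN only in replicate 3, at 0.740 CPM. The fitted change was −4.96 (SE 1.45, 95% interval −7.88 to −2.04, adjusted p = 0.02265). Col6a6, the third gene of this row on chromosome 9, was at 2.95, 3.10, 2.62 and 1.94 CPM in AL and at 2.01, 3.62, 3.84 and 1.17 CPM in TAN (0.01, 95% interval −1.24 to 1.25), and the groups overlapped. The Col6a4 call was lost without AL replicate 3 (adjusted p = 0.0671) and without TAN replicate 1, 2 or 4 (0.0775, 0.0533 and 0.0564), and without TAN replicate 3, the only TAN library with a count, the estimate was −10.04. Col6a5 stayed called without any single 4 PM library.

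Lymphocyte content moved with both genes. The summed level of the 10 lymphocyte markers was 943 to 1665 CPM in the AL 4 PM libraries and 9.73 to 322 CPM in TAN. Markers of lymph node stroma, 5 genes, summed to 133 to 231 CPM in AL 4 PM and 6.16 to 55.4 CPM in TAN 4 PM. Across all times, Col6a4 was at 0 to 0.394 CPM (median 0) in the 10 libraries with a lymphocyte sum under 100 CPM and at 0.0656 to 13.9 CPM (median 3.77) in the other 38. Col6a5 was at 0.169 to 1.32 CPM in those 10 and at 0 to 14.5 CPM (median 4.79) in the other 38. Among the latter, Col6a5 was at 0 in AL 8 AM replicate 1, with a lymphocyte sum of 305 CPM. It was also at 0 in TAN 8 PM replicate 2, with the highest lymphocyte sum of the 48 libraries at 2488 CPM. In TAN 4 PM replicate 3, with a lymphocyte sum of 322 CPM, it was at 0.416 CPM. Col6a6 had medians of 2.58 CPM in the 10 libraries and 2.53 CPM in the other 38. The 4 AL libraries among the 10 had Col6a5 at 0.939, 0.864, 0.544 and 0.364 CPM. With the lymphocyte markers as a covariate, the 4 PM change of Col6a5 was −2.27 (adjusted p = 0.306) and that of Col6a4 was −1.84 (adjusted p = 0.3793), and 0 collagen genes were called, as were 0 of all 19977 genes. The diet and the lymphocyte content of the 4 PM samples cannot be told apart. The percent of counts on loci of uncertain annotation (GENCODE biotype TEC) also differed, at 0.0882% to 0.110% in AL 4 PM and 0.0327% to 0.0847% in TAN 4 PM, and with it as a covariate 0 collagen genes were called at any time, and 55 of the 19977 genes at 4 PM.

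**Figure D5:**
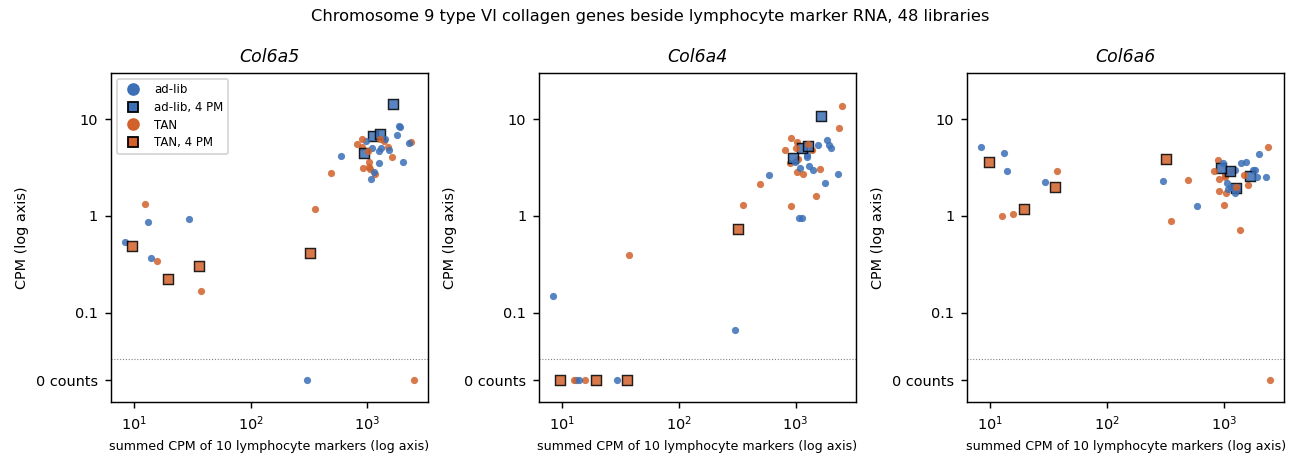
CPM of Col6a5, Col6a4 and Col6a6 against the summed CPM of 10 lymphocyte markers (log axis) in 48 libraries colored by diet, with 4 PM libraries as squares. Col6a5 and Col6a4 are near 0 in the libraries under 100 CPM of markers in both diets, while Col6a6 has medians of 2.58 and 2.53 CPM on the 2 sides.

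Of the FACIT collagens, Col12a1, which decorates type I fibrils, had 6.07, 5.95, 7.23 and 6.84 CPM in AL at 4 PM and 2.81, 2.32, 2.73 and 2.62 CPM in TAN. The groups did not overlap and each was narrow. The change of −1.31 (SE 0.50, 95% interval −2.33 to −0.30) missed the threshold with an adjusted p of 0.0635, and the gene was called in the fit restricted to 4 PM, in DESeq2 and without TAN 8 PM replicates 1 and 2. Col23a1, a transmembrane collagen, was at 5.05, 7.73, 8.60 and 5.64 CPM in AL and 0.732, 4.81, 3.05 and 3.85 CPM in TAN, without overlap (−1.12, adjusted p = 0.0834). Limma voom and DESeq2 called Col23a1 lower at 4 PM. Col12a1 was also called lower when at least 10 counts were required in every library. Neither gene was called at 4 PM with the lymphocyte or the TEC covariate. The limit above, that diet and lymphocyte content cannot be told apart at 4 PM, holds for both. Both genes fall outside the rule for named genes and were picked after their values were seen.

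The gene called at 8 PM was Col4a6 (chrX:141165403-141474076, minus strand), a minor type IV chain that lies head to head with Col4a5. It had 1, 5, 15 and 8 counts in the AL libraries (0.0379, 0.243, 0.639 and 0.348 CPM) and 0 counts in all 4 TAN libraries. Against the limit that 0 counts allow, 3 counts over the TAN group, it was at least 10.2-fold lower in TAN (adjusted p = 0.04785). This limit pools the counts of each group and leaves out the spread between libraries. The call rests on 29 counts in all, and it was lost on leaving out any one of the 8 libraries. DESeq2 also called the gene at 8 PM, and limma voom did not. The 4 TAN libraries had 0.0294% to 0.0394% of counts on TEC loci, and the 4 AL libraries 0.0807% to 0.104%.

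The diet by time interaction asks whether the diet difference varied over the day. It was called for 1 collagen gene, Col6a5 (adjusted p = 0.04735), against 8.98% of all genes. AL means of this gene were 2.31 CPM at 8 AM, 8.21 at 4 PM and 6.82 at 8 PM, and TAN means were 4.09, 0.358 and 2.29 CPM at the same times. The 4 PM difference was the only one of the 6 that was called for this gene. The call was lost on leaving out any one replicate number (adjusted p = 0.0716 to 0.316).

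Variation over the 6 times was then tested in each diet. In AL 0 collagen genes were called (0.0551% of all genes), with 1 at an unadjusted p under 0.05, and a 24-h cosine was called for 0 (0.0801%), with 2 at an unadjusted p under 0.05. DESeq2 called 0 in both, beside 119 and 134 of all 19977 genes. In TAN 2 genes varied with time (23% of all genes) and 5 fitted a 24-h cosine (19.8%). The counts of 2 and 5 are out of 38 collagen genes and were not tested against these shares.

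Col15a1 was called in both tests in TAN. Its TAN means were 105 ± 21 CPM at 8 AM, 110.2 ± 35.3 at 12 PM, 143 ± 62 at 4 PM, 42.2 ± 33.3 at 8 PM, 59.5 ± 13.8 at 12 AM and 58.8 ± 10.4 at 4 AM (SD, n = 4). It was thus higher in the light phase, with the cosine peak at 11.95 h of clock time and an amplitude of 0.73 on the log2 scale (adjusted p = 0.0247 for the cosine and 0.0358 for time). Both calls held without replicate number 4 and were lost without number 1, 2 or 3, when the adjusted p reached 0.154 for the cosine and 0.362 for time. In AL its estimated peak was at 7.84 h with an amplitude of 0.52 (adjusted p = 0.423), and the interaction did not separate the diets (adjusted p = 0.205). The low point at 8 PM includes TAN replicates 1 and 2, at 19.1 and 13.6 CPM against 50.2 and 85.8 CPM.

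Col5a3 fitted the cosine in TAN (peak 13.13 h, amplitude 0.64, adjusted p = 0.0402, and 0.0577 to 0.239 on leaving out any one replicate number, so the call was lost each time), with means of 75.2 ± 37.9 CPM at 4 PM and 29.6 ± 5.3 CPM at 4 AM. Its AL estimate was of like amplitude (0.72, peak 8.81 h) with an unadjusted p of 0.0024 and an adjusted p of 0.248. The interaction gave an adjusted p of 0.294, so a difference between diets in the daily course was not shown. Col6a5 also fitted it in TAN, with a peak at 5.34 h and its lowest mean at 4 PM (0.358 CPM, adjusted p = 0.0282), while its lowest single libraries were TAN 8 PM replicates 2 and 4 at 0 and 0.169 CPM. This call was lost with the lymphocyte covariate (adjusted p = 0.1432) and on leaving out replicate 2, 3 or 4 (0.0919 to 0.155).

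The other 2 were near the limit of detection. Col13a1, a transmembrane collagen of cell contacts, had 0 counts in all 4 TAN libraries at 12 AM and 0.877, 0.992, 0.437 and 1.15 CPM at 12 PM, at least 24.2-fold more against the limit of 3 counts over the 12 AM group (adjusted p = 0.0222 for the cosine and 0.0488 for time). This limit too pools the counts of each group and leaves out the spread between libraries. At 12 AM the AL libraries had 0, 0, 1.196 and 0.516 CPM, so the 2 diets overlapped. The cosine call of Col13a1 held only without replicate number 1, and its time call was lost without any one number (adjusted p = 0.118 to 0.2105). Col4a6 peaked at 9.06 h (adjusted p = 0.0452) with its 0 counts at 8 PM, a call lost without any one number (0.0696 to 0.218).

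Genes of collagen synthesis, assembly, breakdown and sensing were read from 8 lists with 114 tested genes. None of them was called at 8 AM, 12 PM, 12 AM, 4 AM or over the day, and none varied with time in AL. At 4 PM 7 were called, 4 higher and 3 lower, beside 15.3% of all genes. None of these 7 calls held with the lymphocyte covariate, under which 0 of 19977 genes were called. Of 16 folding and modification genes 2 rose, and none fell. Serpinh1, which encodes the collagen chaperone HSP47, was at 190, 228, 128 and 170 CPM in AL and at 409, 473, 447 and 391 CPM in TAN. The groups were well apart, with a change of 1.26 (SE 0.38, adjusted p = 0.0257). P4hb, a subunit of the prolyl hydroxylase that stabilizes the triple helix, was at 365, 363, 308 and 326 CPM in AL and 515, 480, 636 and 479 CPM in TAN (0.63, adjusted p = 0.0252). P4hb is also known as protein disulfide isomerase, which serves secreted proteins in general. Of 9 secretion genes, the vesicle coat components Sec23a (0.86) and Sec13 (0.57) rose. Of 17 fibril partners, Fmod, a proteoglycan that guides fibril assembly, fell from 16.6, 15.5, 19.4 and 10.9 CPM to 0, 2.05, 6.99 and 2.01 CPM (−2.48, adjusted p = 0.0333). Mmp8, a collagenase of neutrophils, and Skil, a repressor of TGF-β signaling (−1.44), also fell.

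At 8 PM 10 of the 114 were called, 1 higher and 9 lower, beside 11.7% of all genes. These calls are from the fit without a covariate. At this time the TEC share of counts did not overlap, at 0.0294% to 0.0394% in TAN and 0.0807% to 0.104% in AL. Postn, which encodes periostin, a matrix protein that binds type I collagen, was at 62.3, 124, 103 and 216 CPM in AL and 19.3, 16.002, 33.7 and 42.1 CPM in TAN, without overlap (−2.19, SE 0.37, adjusted p = 0.000657). Of 16 basement membrane partners, the laminin chains Lamb1 (−1.35), Lamc1 (−1.204) and Lama3 (−3.01) fell, while Col4a1 and Col4a2 were not called (−0.18, 95% interval −0.91 to 0.54, and −0.03, 95% interval −0.87 to 0.80). Of 8 receptors, the integrin subunits Itga1 (−1.28) and Itga10 and the collagen-sensing kinase Ddr2 (−1.07) fell. Ddr2 was at 80.5, 129, 85.4 and 137 CPM in AL and 32.5, 31.1, 49.7 and 92.4 CPM in TAN, where replicate 4 overlapped AL. The secretion factor Mia2 (−1.04) and the protease Mmp13 fell, and Smad7, an inhibitor of TGF-β signaling, rose (1.37). Markers of fibroblast progenitors (Pdgfra and Pdgfrb, 2 of 10) and endothelium (Pecam1, Kdr and Cdh5, 3 of 8) were called lower at the same time. The summed fibroblast progenitor level was 333 to 596 CPM in TAN 8 PM and 407 to 604 CPM in AL 8 PM, and the summed endothelial level 183 to 434 against 490.0 to 796 CPM, and at most 2 fibroblast progenitor markers and no endothelial marker were at 0 in any of these libraries. The part of these markers in the 8 PM changes was not tested. Of the 12 procollagen-cleaving and cross-linking genes, 0 were called at 4 PM or 8 PM, with medians of 0.58 and −0.64. Over time in TAN 27 of the 114 were called (23% of all genes) and 13 fitted the cosine (19.8%), and the interaction was called for 7 (8.98%).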

How the data were processed

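The deposited table holds whole-number counts of reads per gene for 48 poly-A RNA-seq libraries; the authors' processing notes name TopHat 1.3.3, DESeq2 1.20.0, limma and edgeR and the builds mm9, mm10 and GRCm38 without roles. Gene coordinates equaled GENCODE M21 on GRCm38 for 98.3% of rows and for 44 of 44 collagen genes. Library strand is not given in the sources used here, so reads of overlapping antisense genes cannot be told apart; the largest such overlaps were 5.6% of Col4a3 and 6.1% of Col9a3 exonic bases. A deposited table of the authors' group-mean FPKM values was not used.

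Counts were fitted in R 4.3.3 with edgeR 4.0.16 (TMM, filterByExpr minimum count 10, robust quasi-likelihood, 12 groups of diet and time), with Benjamini-Hochberg adjustment over 19977 genes. CPM used effective library sizes; TPM used summed exon lengths. DESeq2 1.42.0, limma 3.58.1 voom, other filters, factors, covariates, single time points and left-out libraries were alternatives. Scripts were tested on simulated counts. Fits were read at adjusted p under 0.05, with 95% intervals. The intervals come from the quasi-likelihood fit and include the spread between libraries. Limits from 0 counts cover counting error only.

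The collagen genes, the gene lists and the tests were chosen with earlier results of these data known. Genes are named with values if called or among the 10 highest by mean TPM, and list genes if called, at most 3 per list and comparison; Col5a1, Col6a6, Col12a1 and Col23a1 were added after their values were seen. Sequences are from RefSeq; protein sequences were not used here.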

Additional observations from a re-analysis of the deposited data

Results flagged for a closer look

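Within each diet and time, the highest and lowest of the 4 libraries were compared with the rest by Dixon's ratio for 15 collagen genes and for the collagen share of counts. Of 192 groups examined, 13 held a library past the 95% critical value, where chance gives about 1 in 20 groups.

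AL 4 AM replicate 3 was high for Col15a1 (269.9 CPM), Col4a2 (152.7 CPM) and Col5a3 (113.2 CPM), and it is one of the libraries with a lymphocyte marker sum under 100 CPM. TAN 4 PM replicate 2 was high for Col1a1 (191.8 CPM), Col6a2 (185.3 CPM) and Col5a3 (131.7 CPM), and TAN 4 AM replicate 4 for Col1a1 (83.22 CPM), Col5a2 (77.3 CPM) and the collagen share (0.209% of counts). Single libraries stood apart for Col15a1 in AL 4 PM replicate 3 (57.39 CPM, low), Col4a2 in AL 8 PM replicate 4 (79.44 CPM), Col4a6 in TAN 12 AM replicate 2 (0.251 CPM) and Col6a4 in TAN 4 PM replicate 3 (0.7404 CPM), the last 2 in groups otherwise at 0 counts.

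The diet difference of Col6a5 varied between times of day by the interaction test (edgeR, adjusted p = 0.04735).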

How the results depend on the processing

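Depth limits the low genes most: Col4a6 and Col13a1 rest on a few counts per library. The count of called collagen genes was 0 at 8 AM, 12 PM and 4 AM, over time in AL and for the AL cosine under every alternative run. The filter of at least 10 counts in every library left 15 collagen genes. Col6a5, Col6a4, Col4a6 and Col13a1 were not among them and could not be called under it. At 4 PM (2 called) the count was 1 (Col12a1) with this filter and 4 with DESeq2. It was 0 with the lymphocyte covariate, 0 with the TEC share covariate and 5 (2 higher, 3 lower) in a fit of that time alone. On leaving out a library it was 1 to 2. At 8 PM (1 called) it was 0 without a filter and 0 with the 10-count filter. It was 3 with limma voom (Col6a5, Col4a5 and Col9a3, without Col4a6) and 5 with the lymphocyte covariate. It was 0 with the muscle covariate, 0 with the TEC covariate and 0 in the separate fit. On leaving out a library it was 0 to 2. At 12 AM (0 called) DESeq2 called 1. For the interaction (1 called) it was 0 without a filter, 0 with the 10-count filter, 2 with voom, 3 with DESeq2, 0 with either the lymphocyte or the TEC covariate, and 0 to 0 on leaving out a replicate number. Over time in TAN (2 called) it was 0 without a filter, 14 with voom, 7 with DESeq2, 8 with the lymphocyte, 5 with the muscle and 0 with the TEC covariate, and 0 to 7 on leaving out a number. For the TAN cosine (5 called) it was 3 without a filter, 2 with the 10-count filter, 10 with voom, 14 with the lymphocyte and 0 with the TEC covariate, and 0 to 3 on leaving out a number. The number called among all 19977 genes moved as well. Over time in TAN it was 4603 in the main fit, 6661 with voom and 7347 with DESeq2. For the TAN cosine it was 3965 in the main fit and 5664 with voom. At 4 PM it was 3057 in the main fit and 4410 with DESeq2, and at 8 PM 2333 and, with voom, 3711. For the interaction it was 1793 in the main fit, 4390 with voom and 4034 with DESeq2. Without a filter 33438 genes were tested, and it was 1293 at 8 PM and 937 in the interaction. In TAN it was then 2972 over time and 3136 for the cosine. With the 10-count filter 11196 genes were tested, and it was 2816 at 4 PM and 2226 at 8 PM. It was then 2283 in the interaction and 3296 for the TAN cosine. Totals for the separate fits, and for the TAN tests with a covariate or a left-out number, are not given here. Without TAN 8 PM libraries 1 and 2, a setting chosen after seeing the data, 0 were called at 8 PM, 2 over the day (Col12a1 and Col6a5, lower), 2 in the interaction and 3 at 4 PM. As a share of TPM, collagens took 0.05675% in AL and 0.05471% in TAN. On leaving out a replicate number their share of counts was 0.1749% to 0.1906% in AL and 0.1688% to 0.1834% in TAN.

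With the lymphocyte covariate, 11 estimates at 4 PM changed sign and none was called: Col3a1 −0.39, Col6a1 −0.40, Col4a1 −0.15, Col1a2 −0.54, Col15a1 −0.14, Col4a2 −0.23, Col1a1 −0.52, Col6a2 −0.13, Col6a3 −0.41, Col5a2 −0.13 and Col5a3 −0.0926. The cause of these changes was not tested.

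Deviations of same-numbered AL and TAN libraries of the same time were correlated at −0.586 to 0.844 over 24 pairs (median −0.0127). Of these pairs 10 were over 0.1. Libraries of different numbers were not compared, so whether the replicate number pairs the libraries was not tested. With the replicate number as a block, 2 collagen genes were called at 4 PM, 0 at 8 PM, 0 in the interaction, 4 over time in TAN and 5 for the TAN cosine.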
